A study of Mus musculus with 8 samples.

Results

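Complement components and regulators were examined in the stromal vascular fraction (SVF) of gonadal white adipose tissue (WAT) through 9 genes, chosen by name from the gene count table: C1qa, C1qb, C1ra, C1s1, C2, C4b, C3, Cfb and Serping1. The table holds 54532 genes, of which 15963 passed edgeR's expression filter, the 9 among them. The SVF is what sediments when fat tissue is digested with collagenase and the buoyant adipocytes are discarded, here from 1 gonadal pad per mouse, with red blood cells lysed. All 8 mice were male C57BL/6J animals, 6 weeks old at the start per the series record, made obese and insulin resistant by 12 weeks on an HFD with 60% of calories from fat. All were then moved to a NCD (16% fat by calories) and at the same time began 6 weeks of antibody injections at 2 mg/kg every 2 weeks, ending at week 18. The 4 control Ab-treated mice (mice 1, 2, 6 and 9) received an IgG1k isotype Ab, and the 4 anti-BAFF Ab-treated mice (mice 5, 7, 8 and 10) received the Sandy-2 Ab against B cell-activating factor, a cytokine that B cells need for survival. No group without Ab, and none kept on an HFD, was analysed here, so every value belongs to the period after the change of diet. Antibody bound to a surface is a trigger of the classical complement pathway, and the comparison asks whether complement transcripts of the tissue differed once BAFF was neutralized.

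Complement is a cascade of plasma proteins that coats targets and recruits phagocytes. In the classical pathway, C1q binds antibody on a surface and switches on the proteases C1r and C1s, which cut C4 and C2 into the enzyme that splits C3, while the alternative pathway reaches C3 through factor B and factor D. C1 inhibitor, the product of Serping1, blocks C1r and C1s. Most plasma complement is made by the liver, but C1q is made mainly by macrophages, and fibroblasts and other stromal cells make C1r, C1s, C3 and C1 inhibitor. Apoptotic cells bind C1q and C3 fragments, which phagocytes recognize.

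Depth was between 13562340 and 18548024 counts per mouse, and the floor of 3 counts was at most 0.219 CPM. Values under the floor are printed where they occur, but their levels are uncertain. The floor covers counting error only. Markers of macrophages (12 of 12 tested, summed 8448 to 12458 CPM) and of stromal progenitors (12 of 12, 15169 to 19198 CPM) were abundant in every mouse, and adipocyte markers were low (5 of 6 tested, 58.4 to 81.7 CPM), as the label SVF states. Control mouse 1 stood apart from the other 7: its mesothelial score (mean log2 CPM of 9 markers of the cells that line the pad) was 4.69 against 5.56 to 6.31, and its endothelial score was 6.09 against 6.30 to 6.98. Leaving it out raised the number of genes at an unadjusted p under 0.05 from 304 to 1708, so several results are given with and without it. Correlations with genes outside the 9, and most ratios between genes, are given only with it and may rest on it. Values of a bulk library cannot tell fewer cells of a type from less RNA per cell.

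The level of each gene per unit of length (FPKM, from the gene lengths in the table) spanned a wide range, and the central component led. C3 had a mean of 1767 FPKM over the 8 mice (range 1418 to 2139), rank 11 of the genes tested, and by CPM, where counts are divided by a TMM-scaled library total, it was at rank 2, after the actin-severing protein gelsolin (Gsn). It alone took 0.749 to 1.10% of all counts and 61.6 to 69.2% of the counts of the 9 genes. The C1q chains followed, C1qb with 821 FPKM (723 to 939) and C1qa with 637 FPKM (557 to 761), and then C1 inhibitor (Serping1) with 564 FPKM (443 to 635). C1s1 (205 FPKM), C4b (177 FPKM) and C1ra (111 FPKM) formed a lower tier. At the bottom were both genes that supply the protease of a C3-splitting enzyme, C2 with 8.65 FPKM (4.45 to 11.9) and Cfb, which encodes factor B, with 1.73 FPKM (1.38 to 2.06).

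**Figure D1:**
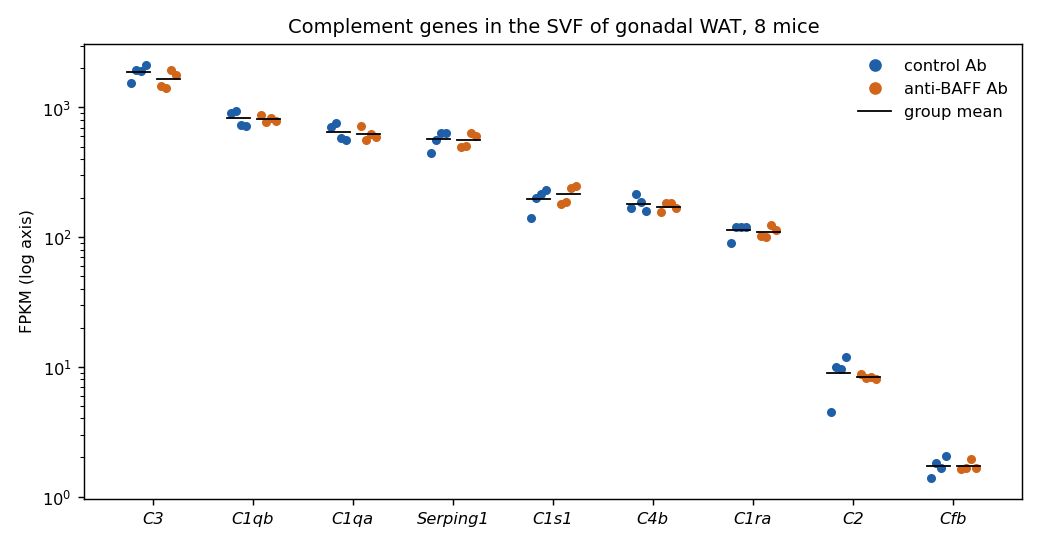
Level of the 9 complement genes in each mouse as FPKM on a log axis, ordered from C3 to Cfb; points are mice (4 per group) and short lines are group means. The order runs from 1767 FPKM for C3 to 1.73 FPKM for Cfb, and the points of the groups overlap for every gene.

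Neighbours in this order were compared within each mouse by two-sided exact sign-flip permutation tests, adjusted over the 8 neighbouring pairs; the smallest p that 8 mice allow is 0.00781. Of the 8 steps, 6 ran the same way in 8 of 8 mice (adjusted p = 0.0104 each by the exact sign-flip test). The largest were from C1ra down to C2, 13.2 times lower, and from C2 down to Cfb, 4.88 times lower, followed by Serping1 over C1s1 (2.77 times), C3 over C1qb (2.14 times), C4b over C1ra (1.59 times) and C1qb over C1qa (1.29 times). C1qa exceeded Serping1 in only 4 of 8 mice (adjusted p = 0.203), and C1s1 exceeded C4b in 6 of 8 (adjusted p = 0.134), so neither pair was separated beyond the spread between mice. Without control mouse 1 the mean log2 ratio of C1s1 to C4b was 0.26 in place of 0.20 and its unadjusted p was 0.0469 by the exact sign-flip test. Reads of C2 and Cfb need care: the predicted gene Gm20547 lies on the same strand over 99.4% of the span of Cfb and 54.5% of that of C2, has 0 counts in every mouse, and the rule for reads that fall in both genes is not given in the sources used here. On the opposite strand the protein-coding gene Zbtb12 covers 48.7% of the span of C2, with at most 64 counts in a mouse. The low levels of C2 and Cfb are therefore uncertain.

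For orientation in the genome, upstream sequences from RefSeq (GRCm38.p6, the assembly of mm10) were set beside the levels. Of the 9 genes, 4 had an entry (C1qb, C1ra, C1s1 and C3). The 250 bases before the start are printed for C1qb, a recognition chain made by macrophages, and for C1s1 and C3, whose levels are compared with C1q over the mice further on. They lie at chr4:136886201-136886450, chr6:124542360-124542609 and chr17:57228137-57228386, all on the minus strand, and are written 5′ to 3′. Capitals mark matches to GAGGAA, the core bound by the myeloid factor PU.1, and to TTNNGNAA, a core bound by C/EBP factors; both strands were searched and the motifs are distinct.
C1qb: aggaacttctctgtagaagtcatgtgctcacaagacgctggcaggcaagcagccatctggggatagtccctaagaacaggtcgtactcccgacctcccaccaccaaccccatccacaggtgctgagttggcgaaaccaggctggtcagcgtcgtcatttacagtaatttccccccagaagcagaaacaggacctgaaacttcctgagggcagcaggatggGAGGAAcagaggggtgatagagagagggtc
C1s1: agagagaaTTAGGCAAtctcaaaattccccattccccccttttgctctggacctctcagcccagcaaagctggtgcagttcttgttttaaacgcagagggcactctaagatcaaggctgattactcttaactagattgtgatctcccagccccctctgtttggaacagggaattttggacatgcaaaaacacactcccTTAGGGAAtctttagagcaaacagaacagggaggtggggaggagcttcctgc
C3: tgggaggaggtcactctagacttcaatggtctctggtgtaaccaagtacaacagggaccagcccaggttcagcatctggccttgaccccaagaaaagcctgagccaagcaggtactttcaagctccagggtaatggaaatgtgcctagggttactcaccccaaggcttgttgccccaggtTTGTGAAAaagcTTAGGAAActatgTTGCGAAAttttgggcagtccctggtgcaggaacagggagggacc
GAGGAA occurred once for C1qb, 30 bases before the start, and in none of the C1ra, C1s1 and C3 windows; 23.3% of all 32851 windows of this length hold it. TTNNGNAA, held by 36.8% of all windows, occurred 3 times for C3 (70, 58 and 45 bases before the start) and at 242 and 52 bases for C1s1, 2 times for C1ra (72 and 29 bases) and not for C1qb. A second listed start of C1s1 had 1 such match, 90 bases before it. C1qc, the remaining C1q chain, held both motifs, GAGGAA at 193 and TTNNGNAA at 81 bases. GAGGAA was thus in the windows of C1qb and C1qc and in none of those of C1ra, C1s1 and C3. TTNNGNAA did not divide the C1q chains from the other genes. With so few windows, and GAGGAA in 23.3% of all windows, no conclusion is drawn from this split. The letters TTCNNNGAA, a STAT site, and the NF-kappaB motif were in none of the 4 genes' windows; they are in 7.02% and 1.21% of all windows. These are matches of letters, and binding was not measured.

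None of the 9 genes was called as higher or lower with anti-BAFF Ab. The quasi-likelihood test of edgeR called 0 of 9 at an adjusted p of 0.05, against 0.0564% of all genes tested. At an unadjusted p of 0.05 it was also 0 of 9, against 1.9%. The groups overlapped for every one of the 9, whereas 1.48% of all genes tested had groups that did not overlap. DESeq2 and limma called 0 of the 9 as well. Log2 fold changes (anti-BAFF Ab over control Ab) ran from -0.19 to 0.12, 7 below and 2 above 0, with a median of -0.03 beside 0.00 over all genes tested. The median size of the log2 fold change was 0.07 for the 9 and 0.08 for all genes tested.

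**Figure D2:**
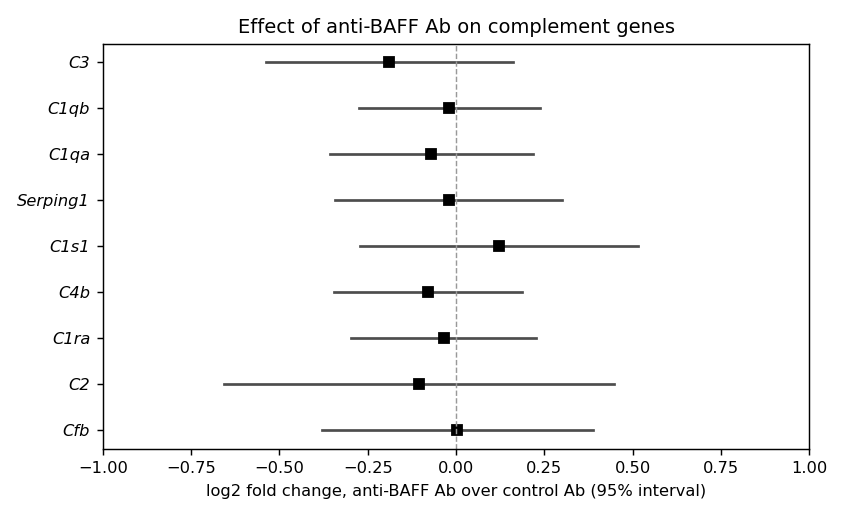
Log2 fold change of each complement gene (square) with its 95% interval (line) from edgeR's quasi-likelihood fit, anti-BAFF Ab over control Ab, 4 mice per group; the dashed line marks no difference. Every interval includes 0, and they reach from -0.66 to 0.51.

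The recognition chains are encoded side by side on chromosome 4. C1qa (136895917 to 136898803) was at 732, 791, 601 and 589 CPM in control mice 1, 2, 6 and 9, and at 743, 580, 650 and 612 CPM in anti-BAFF mice 5, 7, 8 and 10. Control mice 1 and 2 and anti-BAFF mouse 5 were high, the remaining 5 mice were lower, and the groups overlapped. Its log2 fold change was -0.07 (SE 0.13, 95% interval -0.36 to 0.22, adjusted p = 1.00 by edgeR). C1qb (136880129 to 136886187) was at 989, 1022, 798 and 787 CPM in the control mice and at 953, 842, 903 and 852 CPM in the anti-BAFF mice, with the same 3 mice on top. Its log2 fold change was -0.02 (95% interval -0.28 to 0.24).

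The ratio of the 2 chains varied little. The C1q protein holds its A, B and C chains in equal number. C1qb over C1qa was 1.29 ± 0.05 FPKM per FPKM (SD, n = 8 mice, range 1.23 to 1.39), a coefficient of variation of 4.22%. C1qc, the third chain, kept 0.578 ± 0.023 of C1qa (SD, n = 8, range 0.541 to 0.605). In contrast, C1qa over C1s1, a chain made by macrophages over a protease made by stroma, ranged from 2.35 to 5.00 between mice, highest in control mouse 1 and at most 3.97 in the others.

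The proteases C1ra and C1s1 are neighbours on chromosome 6. C1ra (124512405 to 124523443) was at 270, 358, 359 and 356 CPM in the control mice and at 307, 301, 367 and 336 CPM in the anti-BAFF mice. Control mouse 1 was below all others, and the remaining control mice lay among the anti-BAFF mice (log2 fold change -0.03, 95% interval -0.30 to 0.23). C1s1 (124530345 to 124542359) was at 441, 624, 673 and 723 CPM in the control mice and at 564, 580, 752 and 782 CPM in the anti-BAFF mice. It had the largest upward value among the 9, a log2 fold change of 0.12 (SE 0.17, 95% interval -0.27 to 0.51), which was -0.03 without control mouse 1. The antisense gene Gm16567 covers 94.9% of C1s1 and had 0 counts.

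C4b and C2 encode the substrates of C1s and lie on chromosome 17. C4b (34728380 to 34743882) was at 948, 1230, 1058 and 902 CPM in the control mice and at 888, 1039, 1037 and 953 CPM in the anti-BAFF mice. Control mouse 2 was the highest and the groups overlapped (log2 fold change -0.08, 95% interval -0.35 to 0.19). Its near-identical neighbour C4a was at 1.32 to 3.07 CPM, and reads that match both could have been assigned to either. C2 (34862604 to 34898265) was at 17.2, 38.4, 37.2 and 46.0 CPM in the control mice and at 33.9, 31.8, 32.4 and 31.1 CPM in the anti-BAFF mice. Among the control mice were both the lowest value (mouse 1) and the 3 highest, and the coefficient of variation was 35.4% in that group, or 11.8% without mouse 1, against 3.62% with anti-BAFF Ab. Its log2 fold change was -0.10 (SE 0.25, 95% interval -0.66 to 0.45, adjusted p = 1.00 by edgeR). Without control mouse 1 it was -0.35, the groups no longer overlapped, and the unadjusted p was 0.00454, with an adjusted p of 0.336 by edgeR; that fit had 1708 genes under 0.05.

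C3 (chromosome 17, 57203970 to 57228136), on which all pathways meet, was at 7907, 9943, 9884 and 10998 CPM in the control mice and at 7525, 7295, 9947 and 9207 CPM in the anti-BAFF mice. The anti-BAFF mice 5 and 7 were the lowest and control mouse 9 the highest, while anti-BAFF mouse 8 lay above 3 of the control mice. Its log2 fold change of -0.19 (SE 0.15, 95% interval -0.54 to 0.16) was the furthest below 0 of the 9, with an unadjusted p of 0.253 and an adjusted p of 1.00 by edgeR. As a fold, the interval runs from 0.688 to 1.12. Without control mouse 1 the log2 fold change was -0.29 and the unadjusted p was 0.0481, with an adjusted p of 0.473 by edgeR.

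Factor B carries the alternative pathway. Cfb (chromosome 17, 34856374 to 34862518) was at 3.91, 5.08, 4.68 and 5.82 CPM in the control mice and at 4.64, 4.67, 5.55 and 4.69 CPM in the anti-BAFF mice, between 63 and 94 counts. All values were close, and the log2 fold change was 0.00 (95% interval -0.38 to 0.39). C3 exceeded Cfb by 1024 times per unit of length (range 857 to 1160 over the 8 mice).

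Serping1 (chromosome 2, 84765387 to 84775444), the inhibitor of C1r and C1s, was at 1031, 1312, 1466 and 1477 CPM in the control mice and at 1157, 1168, 1474 and 1408 CPM in the anti-BAFF mice. Control mouse 1 was again the lowest, and the groups overlapped (log2 fold change -0.02, 95% interval -0.34 to 0.30). Relative to the protease it blocks, Serping1 over C1s1 per length averaged 2.91 with an SD of 0.17 (n = 4) after control Ab. After anti-BAFF Ab it averaged 2.63 with an SD of 0.15 (n = 4). Of 8 ratios between complement genes compared by two-sided exact permutation tests, it had the lowest p (0.0571, adjusted p = 0.343), and none passed.

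Although the groups did not separate, the mice did, and they did so in different ways for different genes. C1qa and C1qb were above their means in control mice 1 and 2 and anti-BAFF mouse 5. C1ra, C1s1 and Serping1 were lowest in control mouse 1, at or below their means in anti-BAFF mice 5 and 7, and above them in anti-BAFF mice 8 and 10 and control mice 6 and 9. C2, C3 and Cfb were low in control mouse 1 and high in control mouse 9. C4b was highest in control mouse 2, 0.30 above its mean on the log2 scale.

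**Figure D3:**
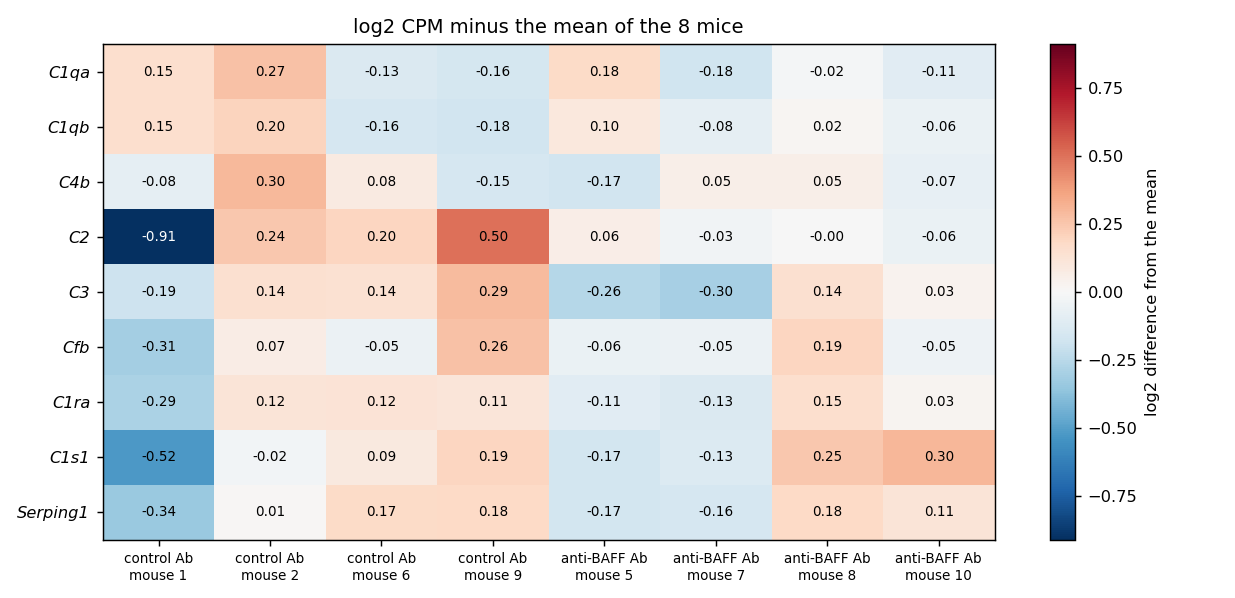
Log2 CPM of each complement gene in each mouse minus the mean over the 8 mice, in log2 units, from blue (below the mean) to red (above). Control mouse 1 is above the mean for C1qa and C1qb (0.15 each) and below it for C2 (-0.91), C1s1 (-0.52), Serping1 (-0.34), Cfb (-0.31) and C1ra (-0.29).

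These patterns were set beside the mean log2 CPM of macrophage and stromal progenitor markers, 18 relations over 8 mice with two-sided exact permutation p-values. Each point is a library, so all values share its scaling, and a higher share of one cell type lowers the shares of the others. Of these relations only that of C1qa with the macrophage score passed after adjustment. For C1qa, r was 0.92 (exact permutation p = 0.00146, adjusted p = 0.0263) and rho was 0.95 (exact permutation p = 0.00114, adjusted p = 0.0205). It was 0.96 without anti-BAFF mice 5 and 7, the pair farthest from the median score, and 0.94 with each group centred on its mean. The macrophage markers did not all follow C1qa. Over the 8 mice its r with single markers ran from 0.03 (Cd14) and 0.11 (Cd68) to 0.91 (Maf) and 0.96 (Mertk). For C1qb, r was 0.84 (exact permutation p = 0.013, adjusted p = 0.117) and rho 0.83 (exact permutation p = 0.0154, adjusted p = 0.138), with r at 0.99 without the same pair of mice. None of the other 7 genes had an r above 0 with the macrophage score.

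With the stromal progenitor score the relations were weaker. C1s1 had the highest r, 0.77 (exact permutation p = 0.0243, adjusted p = 0.146; rho = 0.76, exact permutation p = 0.0368, adjusted p = 0.221). Without anti-BAFF mice 8 and 10 this r was 0.57, so the relation rests in part on those mice. The list itself did not move as one. Decorin (Dcn), the receptor Pdgfra, and Pi16 and Dpp4, markers of early progenitors, were lowest in control mouse 1, and their r with C1s1 ran from 0.76 to 0.97. The collagens Col1a1, Col1a2 and Col3a1 were highest in control mouse 1 or anti-BAFF mouse 5, and their r with C1s1 ran from -0.74 to -0.59. The remaining markers of the list lay between, at -0.04 (Fbn1), -0.02 (Col6a1), 0.07 (Mmp2), 0.20 (Lum) and 0.43 (Pdgfrb).

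Mesothelial and endothelial markers, examined after these values were seen, moved with several of the genes other than the C1q chains (36 relations in all). Serping1 had an r of 0.97 with the endothelial score (exact permutation p = 0.000868, adjusted p = 0.0177; rho = 0.79, adjusted p = 0.126), and 0.93 without the pair of mice farthest from the median score. C1s1 had an r of 0.92 with the endothelial score (exact permutation p = 0.00184, adjusted p = 0.0177; rho = 0.81, adjusted p = 0.126), and 0.83 without that pair. For C2 the r with the mesothelial score was 0.95 (exact permutation p = 0.00246, adjusted p = 0.0177; rho = 0.79, adjusted p = 0.126), but 0.66 without the farthest pair and 0.82 without control mouse 1 alone. Cfb, with an r of 0.90 (exact permutation p = 0.00437, adjusted p = 0.0224) and a rho of 0.95 (adjusted p = 0.0205) with the mesothelial score, fell to an r of 0.62 without that pair. C1ra passed with both scores. Its r was 0.90 for endothelial (exact permutation p = 0.00409, adjusted p = 0.0224) and 0.89 for mesothelial markers (exact permutation p = 0.00243, adjusted p = 0.0177). Serping1 also had an r of 0.80 with the mesothelial score (exact permutation p = 0.0101, adjusted p = 0.0453). Without the farthest pairs these fell to 0.63, 0.77 and 0.46. C4b had no r above 0.35 with any of the 4 scores over the 8 mice, but without control mice 1 and 9, the pair farthest from the median, its r with the mesothelial score was 0.89. None of these scores separated the groups. Subtracting the control Ab mean from the anti-BAFF Ab mean left 0.00 for macrophage (exact permutation p = 1), 0.08 for stromal progenitor (p = 0.2), -0.06 for mesothelial (p = 0.943) and 0.00 for endothelial markers (p = 1), where the smallest p for 4 mice against 4 is 0.0286. The adipocyte (0.18, p = 0.257), neutrophil (0.52, p = 0.714), epididymis (0.94, p = 0.629), T cell (-0.13, p = 0.629) and hepatocyte scores (-0.98, p = 0.457, with only 1 of 7 markers tested) did not pass the same exact permutation test either. That hepatocyte marker, Fga, was highest in control mouse 6 (6.14 CPM). Among those not tested, Alb was at 24.8 CPM and Ttr at 3.65 CPM in control mouse 9. In the other mice they were at most 0.118 and 0.236 CPM. The part of cell composition in the values of the complement genes was not tested.

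Between the complement genes themselves, 3 of 36 pairs passed after adjustment (exact permutation tests over 8 mice). They were C1qa with C1qb (r = 0.95, rho = 0.90), C1ra with Serping1 (r = 0.95, rho = 0.79) and C1s1 with Serping1 (r = 0.94, rho = 0.83), each with an adjusted p of 0.0208 for r. The adjusted p for rho was 0.0821, 0.144 and 0.111 in that order. Leaving out the pair of mice farthest from the median left r at 0.92, 0.84 and 0.95. Described without a test, the 15 pairs among C1ra, C1s1, C2, C3, Cfb and Serping1 all had an r above 0 (0.58 to 0.95, median 0.80), which ran from 0.07 to 0.95 without control mouse 1. The 12 pairs of a C1q chain with one of these 6 genes all had an r below 0 (-0.59 to -0.19), which ran from -0.45 to 0.03 without control mouse 1.

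For each of the 9, the genes with the most similar pattern were listed among 10090 genes with a mean log2 CPM of at least 3. For C1qa they were Mertk (r = 0.96 over 8 mice), a receptor for apoptotic cells, and Rassf2 (0.95). Mertk is itself in the macrophage score. For C1qb they were Rpap3, Eif4b and Galnt10 (0.96 each). C1ra was most like Trf, which encodes transferrin (0.995), Slc1a5 and Papln (0.98 each). C1s1 was most like Fst, the activin-binding protein follistatin (0.995), Gfpt2 and Zeb1 (0.99 each), and Serping1 most like Tnfaip6, a hyaluronan-binding protein, Sp4 and Pkd2 (0.99 each). C2 was most like the Wnt ligand Wnt2b (0.995), the basement membrane collagen Col4a4 (0.99) and Pkhd1l1 (0.98). For C3 they were Emp2 (0.97), Cd81 (0.96) and Magoh (0.95), for Cfb Bmp7, Fam110a and Mpst (0.94 each), and for C4b Trub2 (0.99), Deaf1 (0.98) and Ccdc91 (0.92). They are the highest of 10090 values over 8 mice and are given as a description only.

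The rest of the pathway was covered by 44 further complement genes, listed by role, of which 34 were tested. None was called in either direction by edgeR's quasi-likelihood test, against 0.0564% of all genes tested. An unadjusted p under 0.05 was found for 3 (2 higher, 1 lower), against 1.9% of all genes tested. Groups did not overlap for 1, against 1.48% of all genes tested. DESeq2 called 1 of the 42 that it tested, Cr2, and 67 of 30626 genes in all. Their median log2 fold change was -0.02. The 10 genes not tested had at most 0.992 CPM in any mouse.

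**Figure D4:**
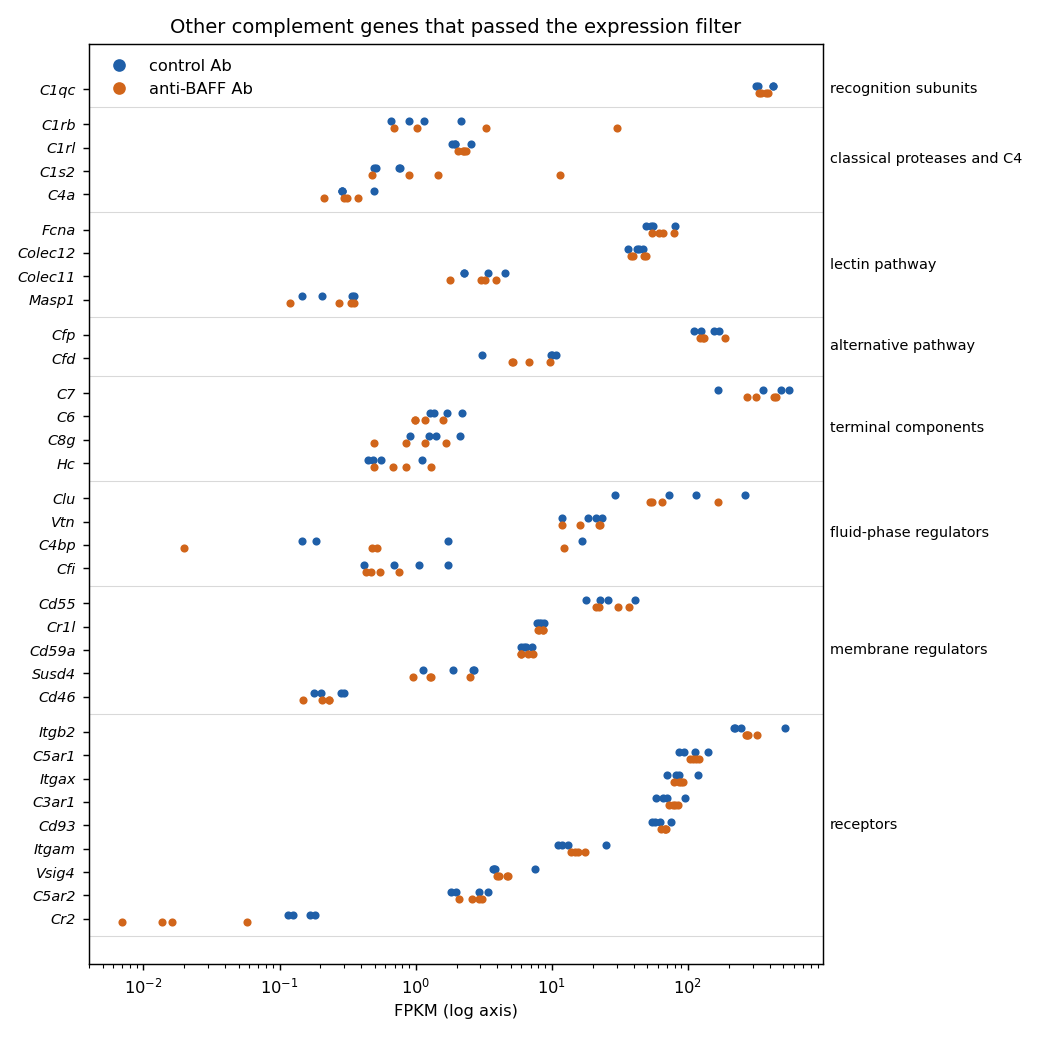
FPKM on a log axis of other complement genes that passed the expression filter, by role, with a point per mouse (4 per group; values of 0 are not drawn). C1qc, C7 and Itgb2 are among the highest, and C1rb, C1s2 and C4bp have single mice far above the others.

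By step, the pathway was unevenly represented in the SVF. C1qc, which completes C1q, was at 612 to 825 CPM. In the lectin pathway, the soluble mannose-binding lectins Mbl1 and Mbl2 and their protease Masp2 were at or near 0 (at most 0.276 CPM), whereas ficolin A (Fcna, made by macrophages) was at 68.2 to 110 CPM and the membrane collectin Colec12 at 121 to 163 CPM. In the alternative pathway, properdin (Cfp), which stabilizes the C3-splitting enzyme, was at 193 to 329 CPM, but factor D (Cfd), a product of adipocytes, was at 2.85 to 9.93 CPM. Of the terminal components that build the membrane pore, C7 was abundant (447 to 1497 CPM), while C5 (Hc) was at 2.78 to 8.11 CPM, C6 at 3.52 to 7.80 CPM, and C8a, C8b and C9 at 0 to 0.681 CPM. C7 was lowest in control mouse 1, with an r with C1s1 of 0.92 over the 8 mice. Receptors for the fragments C3a and C5a (C3ar1 251 to 414 CPM, C5ar1 223 to 360 CPM) and the integrin chains of complement receptors 3 and 4 were present in every mouse. No gene of these steps differed between the groups by the test.

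The 3 genes with an unadjusted p under 0.05 were Cr2, C1rb and C1s2. Markers of other cells were set beside each, without a test of the relation. Cr2, the complement receptor of B cells and follicular dendritic cells, was at 1.49, 1.36, 1.02 and 0.93 CPM (24, 23, 14 and 15 counts) in the control mice and at 0.47, 0.06, 0.13 and 0.11 CPM (7, 1, 2 and 2 counts) in the anti-BAFF mice. Every anti-BAFF mouse lay below every control mouse, and 3 of them lay under the floor of 3 counts. Its log2 fold change was -2.65 (SE 0.52, 95% interval -3.83 to -1.48, adjusted p = 0.319 by edgeR), and DESeq2 gave an adjusted p of 0.017. Leaving out 1 mouse at a time, it ran from -3.53 (without anti-BAFF mouse 5, adjusted p = 0.0924 by edgeR) to -2.35 (without anti-BAFF mouse 7). B cell markers (7 of 7 tested, none at 0) summed to 54.0 to 63.6 CPM in the control mice and 25.9 to 45.4 CPM in the anti-BAFF mice, and their mean log2 CPM was 1.10 lower (two-sided exact permutation p = 0.0286, lower in 4 of 4). Their part in the Cr2 result was not tested.

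C1rb and C1s2, the paralogs of C1ra and C1s1, were set by 1 mouse. C1rb was at 1.61, 2.19, 2.78 and 5.20 CPM in the control mice and at 2.49, 1.69, 73.4 and 8.05 CPM in the anti-BAFF mice, and C1s2 was at 1.36, 2.01, 1.32 and 2.04 CPM and at 1.28, 2.36, 30.7 and 3.86 CPM. Anti-BAFF mouse 8 was far above all others for both, mice 10 and 9 had the next highest values for C1rb, and the other mice overlapped. For C1s2 mouse 10 came next, and anti-BAFF mouse 7 (2.36 CPM) lay above control mouse 9 (2.04 CPM). The log2 fold changes of 2.85 and 2.49 (adjusted p = 1.00 each by edgeR) became 0.46 and 0.56 without mouse 8. The prostate gene Tgm4 was at 595 CPM in mouse 8, 48.1 in mouse 10, 16.3 in control mouse 9 and at most 1.12 in the other 5, and Pbsn was at 276, 24.4 and 3.04 CPM in these 3 mice and at 0 in control mice 1, 2 and 6. This list of 5 prostate genes was written after the values were seen, and its part in the C1rb and C1s2 values was not tested.

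A similar pattern was found for regulators. The C4b-binding protein gene C4bp was at 1.24, 112, 11.7 and 0.99 CPM in the control mice and at 0.13, 83.6, 3.20 and 3.53 CPM in the anti-BAFF mice. Clusterin (Clu), a regulator of the terminal pore, was at 100, 903, 395 and 249 CPM and at 223, 579, 182 and 188 CPM. Control mouse 2 and anti-BAFF mouse 7 were the highest of their groups for both genes. The epididymis gene Adam7 was at 3.60, 348, 84.7 and 6.07 CPM and at 128, 340, 14.2 and 10.3 CPM, highest in the same mice (4 of 8 epididymis markers were tested, summed 16.0 to 1868 CPM with control Ab and 69.1 to 1942 CPM with anti-BAFF Ab). Crisp1, Lcn5 and Spink8 were also highest in these mice. Other mice did not follow: anti-BAFF mouse 5, the lowest for C4bp (2 counts, under the floor), had 522 CPM of Crisp1 and 107 CPM of Spink8, but 0 of Lcn5. Control mouse 6 had 589 CPM of Crisp1. The part of this tissue in the C4bp and Clu values was not tested.

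**Figure D5:**
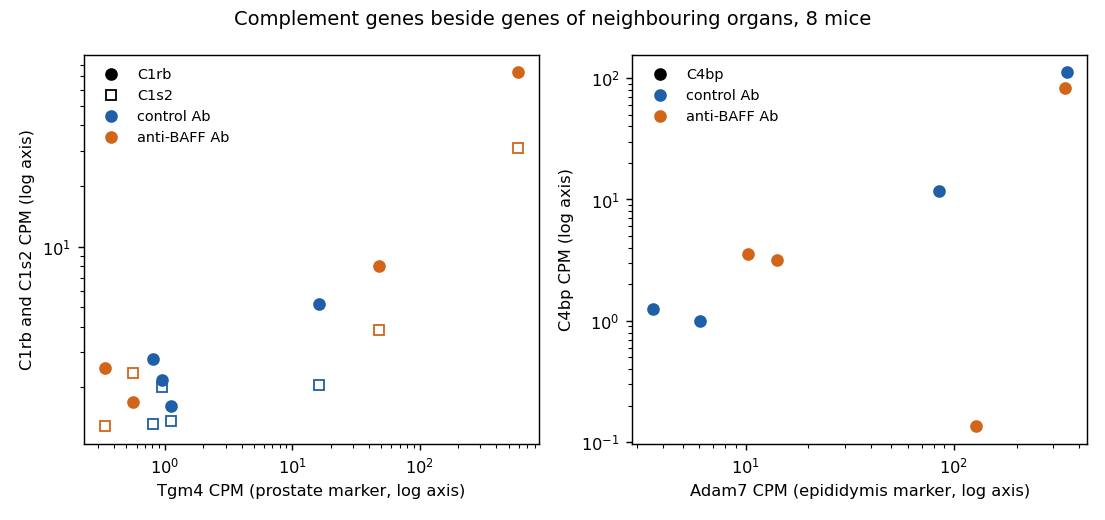
CPM on log axes of C1rb and C1s2 against the prostate gene Tgm4 (left) and of C4bp against the epididymis gene Adam7 (right), a point per mouse. Anti-BAFF mouse 8 is at the upper right of the left panel (Tgm4 595 CPM, C1rb 73.4 CPM), and control mouse 2 and anti-BAFF mouse 7 are at the upper right of the right panel (C4bp 112 and 83.6 CPM). Anti-BAFF mouse 5 has Adam7 at 128 CPM and the lowest C4bp (0.13 CPM, under the floor of 3 counts).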

How the data were processed

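The authors sequenced SVF RNA of 8 mice and deposited raw counts per gene in 1 table with coordinates and a gene length, an other value in bases, used here for FPKM. The submitters' processing notes name mm10; the aligner, the counting rule and the annotation release are not given in the sources used here. The table holds no comparisons by the authors, and 0 columns were left unmapped.

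Groups and mouse numbers come from the labels. The test was edgeR's quasi-likelihood fit (version 4.0.16, R 4.3.3) with treatment as its term, after TMM and filterByExpr at a minimum count of 10, adjusted by the Benjamini-Hochberg method over 15963 genes. CPM use TMM-scaled totals; scores are mean log2 CPM with a prior count of 2. Permutation tests used Python 3.11.15, and the scripts were tested on simulated data. Depth was 13562340 to 18548024 counts; no replicates were repeats of 1 library (smallest chi-square per degree of freedom 7.91). The labels name no batch. Group p-values are set against the spread between mice, 1 library each, and an unlabelled batch could not be told apart from it.

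The genes named are the 9 members, a list of 44 other complement genes, and for each member the 3 genes with the highest r; marker genes are named where a result turns on them, and a few genes that the rule names are not reported here. Members and lists were chosen with earlier results of these data known. Alternatives were RLE, upper-quartile and library-size scaling, other filters, a robust fit, DESeq2 1.42.0, limma 3.58.1 on log2(FPKM + 1), a prior count of 0.5, paralog counts summed, and leaving out mice. Dcn alone, the mesothelial and endothelial scores, and leave-one-out values of gene pairs were added after seeing the data.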

Additional observations from a re-analysis of the deposited data

Results flagged for a closer look

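Within groups of 4 mice, the highest or lowest value was set against the others by its gap over the group's range; of 106 groups examined, 17 had a mouse past the limit, where chance gives about 1 in 20 groups, or 5.3. Among the 9 complement genes there were 2: C1ra at 270.3 CPM in control mouse 1 (next 356 CPM) and Cfb at 5.55 CPM in anti-BAFF mouse 8 (next 4.69 CPM). Control mouse 1 also stood apart for factor D (Cfd, 2.85 CPM, next 9.11), C5 (Hc, 7.01 CPM, next 3.47) and the integrin chains Itgam (126.9 CPM, next 65.9) and Itgb2 (1580 CPM, next 749). Control mouse 2 stood apart for C4bp (111.8 CPM), C1rl (7.68 CPM) and the macrophage complement receptor Vsig4 (11.1 CPM, next 5.70), and control mouse 6 for C4a (3.07 CPM). In the anti-BAFF Ab-treated mice these were C1rb (73.4 CPM) and C1s2 (30.7 CPM) in mouse 8, C4bp (83.6 CPM), Clu (578.5 CPM) and Itgb2 (994 CPM, next 842) in mouse 7, and Cfp (328.8 CPM, next 229) in mouse 5. The neutrophil marker score was 3.55 in anti-BAFF mouse 5, with 0.13 the next.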

How the results depend on the processing

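Under every alternative run, 0 of the 9 complement genes were called, and none of the 44 others was called except under DESeq2, which called 1 (Cr2). Of all genes tested, edgeR called 9 as reported, 19 with no filter, 2 with the robust fit, 3 without mice 2 and 7 and 2 to 9 on leaving out 1 mouse, and DESeq2 called 67. Depth limits the precision for Cfb (63 to 94 counts per mouse) and Cr2 (1 to 24 counts). No paired analysis was possible because the mouse numbers are not shared between the groups. Leaving out 1 mouse at a time, log2 fold changes that crossed 0 ran from -0.16 to 0.013 for C1qa, -0.076 to 0.049 for C1qb, -0.028 to 0.21 for C1s1, -0.35 to 0.063 for C2, -0.14 to 0.015 for C4b, -0.11 to 0.10 for Cfb and -0.14 to 0.038 for Serping1, while C3 (-0.29 to -0.12) and C1ra stayed below 0. Without mice 2 and 7 the values were 0.044 for C1qa, 0.056 for C1qb, 0.016 for C1ra and 0.0035 for Serping1. With paralog counts summed C1ra was at 0.044. Cfb was at -0.0045 with RLE, -0.022 with upper-quartile scaling, -0.011 with library size only, -0.010 with no filter, -0.014 with at least 10 counts in every mouse and -0.0031 with DESeq2. Score differences that crossed 0 on leaving out 1 mouse ran from -0.090 to 0.080 for macrophage, -0.42 to 0.12 for mesothelial, -0.18 to 0.12 for endothelial, -0.34 to 0.88 for neutrophil, -0.13 to 2.34 for epididymis and -0.25 to 0.044 for T cell markers. With library size only, macrophage was at -0.011 and endothelial at -0.0094. The log2 ratio of C1s1 to C4b ran from 0.15 to 0.26. Correlations with the macrophage and stromal progenitor scores that changed sign on leaving out 1 mouse ran from -0.20 to 0.40 for C2 with the stromal progenitor score, and from -0.56 to 0.35 for C4b and -0.73 to 0.15 for C3 with the macrophage score; for C4b r was 0.51 without the 2 mice farthest from the median score. Without control mouse 1, r with the mesothelial score went from -0.24 to 0.13 for C1qa and from -0.37 to 0.0087 for C1qb, and r with the endothelial score from 0.071 to -0.10 for C4b. The cause of these changes was not tested.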
